A study of Mus musculus with 2 samples.

Results

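The genes described are the lectin-like receptors of natural killer (NK) cells and the receptors that work beside them. They were chosen by annotated symbol, as every gene whose symbol starts with Klr, together with Ncr1, Cd244a, Cd226, Cd96, Cd160, Tigit, Clec2d, Clec2i, Lilrb4a and Crtam. The array held 29 such genes on 34 probes, of 19084 named genes in all. Of its 26423 probes, 21876 had a symbol, and the 4547 without one were not searched for further members. Of the 29 genes, 19 were Klr genes and 10 were partner receptors or ligands. RefSeq lists 33 Klr genes in the mouse, and the 19 were those with a named probe. The gap was widest for the Klra (Ly49) genes, of which 4 of 16 had a probe.

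The spleen cells came from naïve NOD-SCID mice of 6 to 8 weeks of age, in which the scid allele of Prkdc blocks the maturation of T and B cells. They were sorted right after isolation, without culture or treatment, into Z(+) cells and Z(-) cells, named after whether they bind the peptide Zfra. Each fraction gave 1 RNA sample, labelled with Cy5 and hybridised to 2 technical arrays of a 1-colour oligonucleotide array, and the mean of both arrays was deposited. The labels do not say how many mice stand behind a fraction beyond the number 8 in the design text, so neither the sort nor the mice have a replicate, and the values carry no p-value.

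NK cells weigh activating against inhibitory signals, and most of the receptors that carry these signals in the mouse are C-type lectin-like proteins encoded side by side in the NK gene complex on chromosome 6. Inhibitory members bear a cytoplasmic tyrosine motif that recruits phosphatases, while activating members have short tails and borrow adaptor chains for their signal. In the spleen these receptors are known mainly from NK cells, although subsets of T cells, innate lymphoid cells and myeloid cells carry some of them.

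The promoters of 6 of the genes are shown because these genes lie in the same complex. These genes include pairs from the same subfamily with alike promoters, and genes with large differences below. Each run is the 250 bases before the annotated start in RefSeq, build GRCm38.p6, written from 5′ to 3′ in the direction of the gene. The runs are those of the reference genome, and the sequences and gene content of the NOD-SCID mice were not examined. Capitals mark the letters TGTGGT, the core of the RUNX motif, or its reverse complement ACCACA, and the runs of Klra8 and Klra17 hold neither.

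Klre1, chr6:129577963-129578212, plus strand: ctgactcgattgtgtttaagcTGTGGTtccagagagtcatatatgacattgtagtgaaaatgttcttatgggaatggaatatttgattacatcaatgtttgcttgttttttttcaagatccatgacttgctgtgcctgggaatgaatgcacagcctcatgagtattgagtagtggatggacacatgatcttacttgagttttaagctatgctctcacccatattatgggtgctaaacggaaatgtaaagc
Klrb1a, chr6:128622935-128623184, minus strand: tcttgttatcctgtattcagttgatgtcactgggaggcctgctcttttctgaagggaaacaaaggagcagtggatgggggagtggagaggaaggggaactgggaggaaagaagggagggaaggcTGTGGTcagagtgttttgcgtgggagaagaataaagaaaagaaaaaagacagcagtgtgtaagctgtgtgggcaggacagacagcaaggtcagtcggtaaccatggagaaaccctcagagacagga
Klrb1c, chr6:128788642-128788891, minus strand: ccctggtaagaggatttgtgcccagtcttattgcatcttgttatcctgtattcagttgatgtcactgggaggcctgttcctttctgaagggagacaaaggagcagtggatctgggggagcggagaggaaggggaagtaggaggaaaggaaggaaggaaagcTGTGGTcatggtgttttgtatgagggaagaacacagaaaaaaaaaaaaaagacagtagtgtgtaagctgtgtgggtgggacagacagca
Klrc1, chr6:129678974-129679223, minus strand: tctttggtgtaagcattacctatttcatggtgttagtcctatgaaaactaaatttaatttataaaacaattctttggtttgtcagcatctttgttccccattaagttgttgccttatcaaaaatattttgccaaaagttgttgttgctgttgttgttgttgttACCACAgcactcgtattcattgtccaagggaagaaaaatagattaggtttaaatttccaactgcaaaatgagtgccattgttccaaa
Klra8, chr6:130129899-130130148, minus strand: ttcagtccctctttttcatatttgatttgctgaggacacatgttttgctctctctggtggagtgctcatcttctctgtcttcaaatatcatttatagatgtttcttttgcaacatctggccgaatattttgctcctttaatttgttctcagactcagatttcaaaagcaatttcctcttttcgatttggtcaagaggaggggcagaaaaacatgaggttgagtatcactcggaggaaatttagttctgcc
Klra17, chr6:129876673-129876922, minus strand: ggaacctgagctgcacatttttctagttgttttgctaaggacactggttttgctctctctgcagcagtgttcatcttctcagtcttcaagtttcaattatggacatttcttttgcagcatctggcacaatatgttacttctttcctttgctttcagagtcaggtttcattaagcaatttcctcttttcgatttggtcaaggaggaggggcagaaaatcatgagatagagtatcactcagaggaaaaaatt

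RUNX factors are transcription factors of blood cells. A promoter entry was matched for 23 of the 29 genes. TGTGGT was present on either strand in 10 of these 23 promoters, against 14.2% of all 27025 promoters of the same length. The 10 were Cd160, Cd96, Klrb1a, Klrb1c, Klrc1, Klrc2, Klre1, Klrk1, Ncr1 and Tigit. By the differences given below, TGTGGT stood in 8 of the 14 promoters of genes at least 2-fold lower in Z(+) and in 2 of the 9 promoters of genes within 2-fold. The T-box core AGGTGT, searched on both strands in the same windows, was present in 2 of the 23 promoters, those of Klrb1 and Klrh1, against 12.0% of all promoters. The motifs were picked with the differences known, some promoters of the same subfamily are alike, and a match is a run of letters, not a shown site. The promoters of Klra8 and Klra17 shared 201 of their 250 bases in a global alignment that allows gaps (80.4%), and those of Klrb1a and Klrb1c shared 188 (75.2%). The other pairs aligned within a subfamily shared less, from 55.2% for Klrb1c and Klrb1b to 59.2% for Klra7 and Klra17. By the same alignment Klre1 and Klra8, from different subfamilies, shared 142 (56.8%), and Klra8 and Klrb1a shared 53.6%. Likeness well above that of different subfamilies was thus seen only for Klra8 with Klra17 and Klrb1a with Klrb1c.

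Most of the receptor genes were lower in Z(+) cells than in Z(-) cells, and none was at least 2-fold higher. By the 2-fold limit, 17 of the 29 were lower in Z(+), 0 were at least 2-fold higher and 12 lay within 2-fold. Over all genes on the array 6.27% were at least 2-fold lower and 2.44% at least 2-fold higher. The median log2 difference, Z(+) minus Z(-), was -1.96 over the 29 genes, with a range of -7.24 to 0.20, beside a median of 0.03 over all genes. RNA of a whole fraction does not tell fewer cells of a type from less RNA per cell.

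By count, the deficit lay mainly in the Klr genes. Among the 19 Klr genes, 14 passed the 2-fold limit as lower in Z(+), with a median log2 difference of -3.13, while of the 10 partner genes 3 did, with a median of -0.21. Brightness limits this contrast. The partner genes Ncr1, Cd226, Clec2i and Crtam were dim in both fractions, as were Klra2, Klrg2 and Klrh1 among the Klr genes. Their small differences cannot be read as equal levels. With genes dimmer than the median gene left out, the partner median was -0.88, from Cd96 and Clec2d, which were lower, and Cd244a and Lilrb4a, which were not. That median was not computed over all Klr genes. By subfamily, the median was -2.65 over 4 Klra genes, -2.42 over 5 Klrb genes and -3.71 over the 7 genes of the Klrc, Klrd, Klre, Klri and Klrk group. The 2 Klrg genes had a median of -1.74, which lies between -3.33 for Klrg1 and -0.14 for Klrg2, and the single Klrh gene was dim in both fractions. Inhibitory and activating receptors were both among the lower genes. Of 9 inhibitory receptors, 6 were at least 2-fold lower in Z(+), with a median of -2.10, and of 10 activating receptors 7 were, with a median of -2.36. Of the 4 chains that pair with another receptor, 3 were at least 2-fold lower, with a median of -4.11. The other 6 genes, Cd244a, Clec2d, Clec2i, Klrb1, Klrg2 and Klrh1, were given no role and are outside these counts. Of these 6, 1 was at least 2-fold lower, with a median of 0.02.

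**Figure D1:**
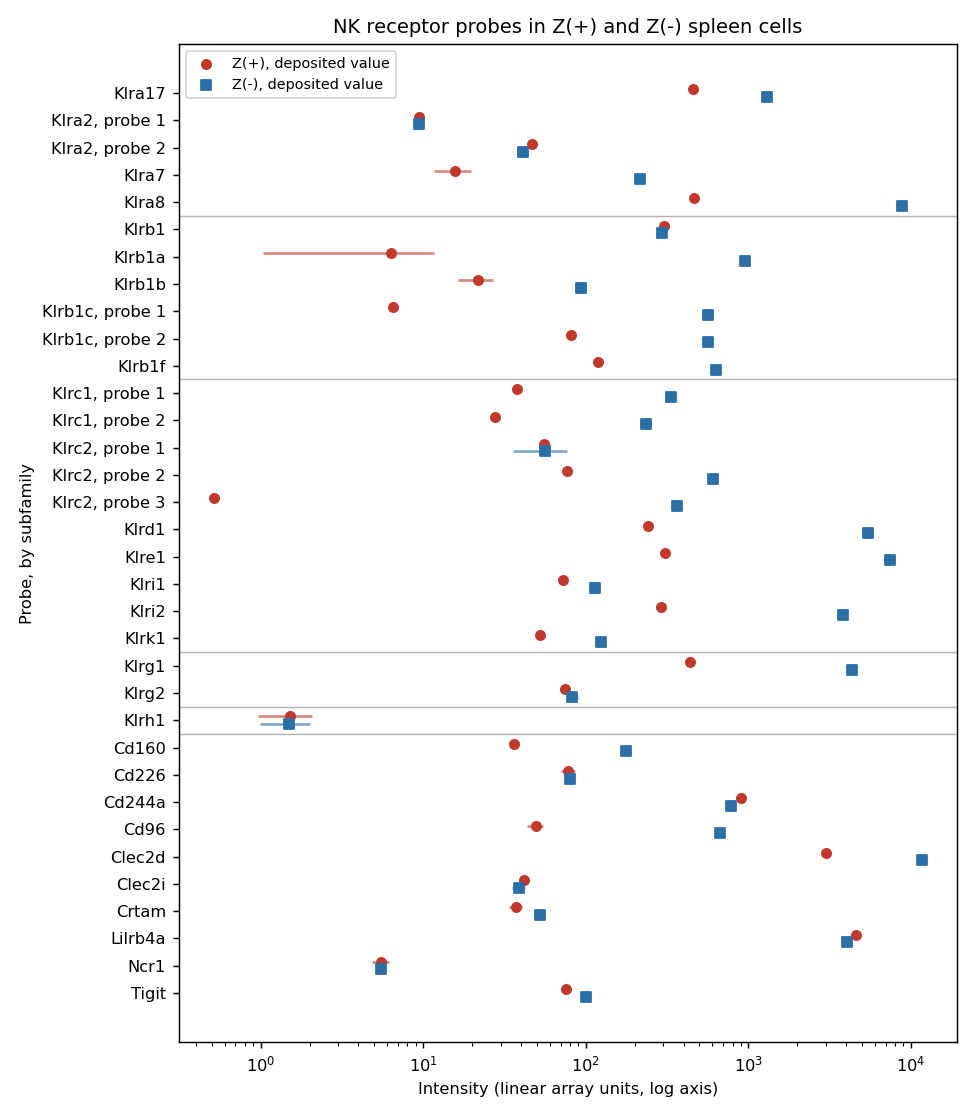
Intensity of each of the 34 probes (log axis, linear array units) in Z(+) cells (red circles) and Z(-) cells (blue squares), with horizontal lines from the lower to the higher technical array where the deposited value could be split and neither array was at 0. Klra8, Klrd1, Klre1, Klri2 and Klrg1 lie between 242 and 465 in Z(+) cells and between 3828 and 8886 in Z(-) cells, whereas Cd244a, Lilrb4a and Klrb1 lie almost on top of each other.

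Precision can be read only between the technical arrays. Most deposited values below 2000 resolved into the values of the 2 arrays behind them, and the SD of the log2 ratio between these arrays, over probes of at least 20, was 0.27 in Z(+) and 0.16 in Z(-). Of the 34 probes, 27 could be split in both fractions. In 17 of the 27 both Z(+) arrays were below both Z(-) arrays, in 2 both Z(+) arrays were above, and in 8 the arrays overlapped. Over all probes split in both samples, both Z(+) arrays were below both Z(-) arrays in 30.0%. The shares above and overlapping were not counted over all probes. Arrays that do not overlap are thus common here and alone do not set a gene apart. These arrays share 1 RNA sample, so they measure labelling and hybridisation only.

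The Klra genes encode the Ly49 receptors, which in the mouse bind MHC class I molecules or viral mimics of them. Klra8 encodes Ly49H, an activating receptor known for recognising mouse cytomegalovirus. Its intensity was 465 in Z(+) cells, from arrays of 475 and 455, against 8886 in Z(-) cells. It was thus 19.1-fold lower in Z(+). Klra7, which encodes the inhibitory Ly49G, had arrays of 11.6 and 19.6 in Z(+) cells against 218 and 212 in Z(-) cells. The arrays of Klra7 did not overlap and the difference was -3.78 on the log2 scale, although 15.6 in Z(+) is among the dim values, where small offsets weigh on a ratio.

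Klra17 and Klra2 differ from these in the cells they are known from. Klra17 encodes Ly49Q, an inhibitory receptor known from plasmacytoid dendritic cells and other myeloid cells rather than NK cells. It had arrays of 433 and 477 in Z(+) cells against 1327 and 1268 in Z(-) cells. Its difference of -1.51 was the smallest of the 3 Klra genes lower in Z(+), and 35.1% of the Z(-) intensity was left in Z(+). Klra2 encodes Ly49B, which is known from myeloid cells. Its 2 probes read 46.5 and 9.49 in Z(+) cells against 41.0 and 9.50 in Z(-) cells, a gene difference of 0.09. Both probes were below the median probe intensity of their sample, 85.8 in Z(+) and 88.5 in Z(-).

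The Klrb genes encode the NKR-P1 receptors, several of which recognise Clec2 proteins. Klrb1a encodes NKR-P1A, an activating member. Its arrays read 11.6 and 1.03 in Z(+) cells against 964 and 942 in Z(-) cells, so Z(+) was near the bottom of the scale. The log2 difference of -7.24 spans -9.87 to -6.34 over the 4 pairings of a Z(+) with a Z(-) array, and its size therefore depends on which array is taken.

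Klrb1c encodes the NK1.1 antigen of C57BL/6 mice and was measured with 2 probes. In Z(+) cells 1 probe read 6.49 and the other 81.2, against 566 and 567 in Z(-) cells. Both probes were lower in Z(+), the brighter by 6.99-fold. The Z(+) value of the dimmer probe lay near the bottom of the scale and gives no firm size, and it enters the gene mean of -4.63 on the log2 scale.

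Klrb1f encodes an activating NKR-P1 receptor, and Klrb1b an inhibitory receptor for the Clec2d product. Klrb1f had arrays of 114 and 124 in Z(+) cells against 645 and 628 in Z(-) cells, a difference of -2.42. Klrb1b had arrays of 16.5 and 26.9 in Z(+) cells against 94.1 and 91.9 in Z(-) cells, a difference of -2.10. With 50 added to each value before logs, the difference of Klrb1b was -0.996, just within 2-fold. Neither gene's arrays overlapped between the fractions. Klrb1 itself, which encodes NKR-P1G, stood apart from these 4 genes with 302 in Z(+) cells and 296 in Z(-) cells, a difference of 0.03. The 2 fractions of Klrb1 could not be told apart by their arrays, which overlapped.

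The next group holds the CD94 and NKG2 receptors. Klrd1 encodes CD94, the chain that pairs with NKG2A and NKG2C to recognise the class Ib molecule Qa-1. Its intensity was 242 in Z(+) cells, with arrays of 239 and 244, against 5452 in Z(-) cells, or 22.6-fold lower in Z(+). Klrc1 encodes the inhibitory partner NKG2A. Its 2 probes read 37.6 and 27.5 in Z(+) cells against 335 and 236 in Z(-) cells, and they were alike in size, with log2 differences of -3.16 and -3.10.

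Klrc2, which encodes the activating partner NKG2C, had 3 probes that disagreed. The first probe read 55.6 in Z(+) cells and 56.2 in Z(-) cells, and both Z(+) arrays fell between the Z(-) arrays of 35.6 and 76.8. The second probe read 77.2 in Z(+) cells against 610 in Z(-) cells, and the third probe 0.517 in Z(+) cells, where 1 array was at 0, against 365 in Z(-) cells. Thus 2 of the 3 Klrc2 probes were lower in Z(+) and 1 was not. The gene mean of -3.84 averages over them and the third probe rests on the floor of 1 that was set before taking logs.

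Klre1 encodes a chain that in the mouse joins Klri1 into an inhibitory receptor or Klri2 into an activating one. Klre1 had 309 in Z(+) cells, from arrays of 305 and 312, against 7437 in Z(-) cells, 24.1-fold lower in Z(+). Klri2 had 292 in Z(+) cells, from arrays of 286 and 298, against 3828 in Z(-) cells, 13.1-fold lower in Z(+). Klri1 had arrays of 69.7 and 75.5 in Z(+) cells against 113 and 116 in Z(-) cells. The arrays of Klri1 did not overlap, yet its difference of -0.66 stayed within 2-fold, unlike that of the activating partner.

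Klrk1 encodes NKG2D, the activating receptor for stress-induced ligands such as the Raet1 and H60 products. It had arrays of 51.3 and 52.7 in Z(+) cells against 122 and 125 in Z(-) cells, 2.37-fold lower in Z(+). With 50 added to each value before logs, its log2 difference was -0.77, within 2-fold. The difference of Klrk1 was far smaller than that of Klrd1 or Klre1, which lie on one side of it in the gene complex. Klrk1 read below the median probe intensity in Z(+) cells and above it in Z(-) cells.

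Klrg1 and Klrg2 share a name but not a difference. Klrg1 encodes an inhibitory receptor for cadherins that marks mature NK cells and effector T cells. It had 436 in Z(+) cells, from arrays of 419 and 453, against 4375 in Z(-) cells, 10.03-fold lower in Z(+). Klrg2 had 75.1 in Z(+) cells and 82.9 in Z(-) cells, with overlapping arrays. Klrh1 read 1.52 in Z(+) cells and 1.51 in Z(-) cells, at the bottom of the scale in both.

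**Figure D2:**
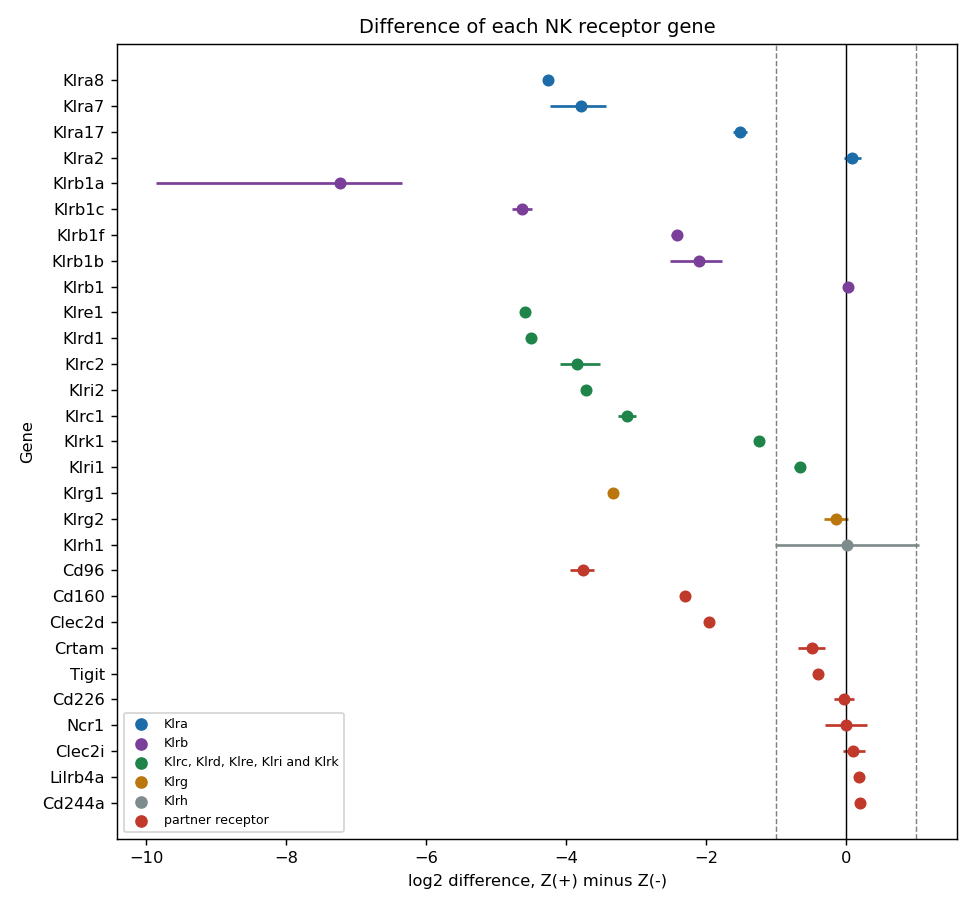
Log2 difference, Z(+) minus Z(-), of each of the 29 genes (points, coloured by subfamily), with lines spanning the 4 pairings of a Z(+) with a Z(-) technical array (averaged over the probes of a gene) where all its values could be split. Dashed lines mark 2-fold, and 17 genes lie to the left of the lower one and 0 to the right of the upper one.

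Among the partner receptors, Cd96, Cd160 and Clec2d were lower in Z(+) and the other 7 lay within 2-fold. Cd96 encodes a receptor for Pvr that competes with Cd226 and Tigit. It had arrays of 43.6 and 54.8 in Z(+) cells against 664 and 672 in Z(-) cells, 13.6-fold lower in Z(+). Cd226 and Tigit, which recognise the same ligand, did not show a difference of this size. Tigit read 76.1 in Z(+) cells against 100.5 in Z(-) cells, and its arrays did not overlap, with a log2 difference of -0.40. Cd226 was below the median probe intensity in both fractions, with 78.2 in Z(+) cells and 79.5 in Z(-) cells and arrays that overlapped.

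Cd160 encodes a receptor for the herpesvirus entry mediator Tnfrsf14. It had arrays of 35.8 and 36.2 in Z(+) cells against 172 and 181 in Z(-) cells, 4.90-fold lower in Z(+). Clec2d encodes Clr-b, the ligand that NKR-P1B reads as a sign of healthy self. It read 3021 in Z(+) cells against 11726 in Z(-) cells, 3.88-fold lower in Z(+), so it remained bright in both fractions.

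Cd244a and Lilrb4a were bright and read slightly higher in Z(+). Cd244a encodes 2B4, the receptor for Cd48. It had arrays of 903 and 892 in Z(+) cells against 768 and 795 in Z(-) cells, or 1.15-fold higher in Z(+), and its arrays did not overlap. Its log2 difference of 0.20 spans 0.17 to 0.23 over the 4 pairings of arrays. Lilrb4a encodes an inhibitory receptor known from mast cells and myeloid cells, and read 4594 in Z(+) cells and 4031 in Z(-) cells, a difference of 0.19. Both differences were below 0.27, the SD of the log2 ratio between the technical arrays of Z(+). With 1 RNA sample per fraction, gaps of this size do not set the fractions apart.

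Ncr1, which encodes the NK marker NKp46, gave no information because it read 5.52 in Z(+) cells and 5.50 in Z(-) cells, near the bottom of the scale. Its equal values cannot be read as equal levels. Crtam and Clec2i were also dim, with 37.1 and 42.0 in Z(+) cells against 52.0 and 39.0 in Z(-) cells. Ncr1, Cd226, Clec2i, Crtam, Klra2, Klrg2 and Klrh1 were the 7 genes with no probe that reached the median intensity of its sample in either fraction. The mean of both log2 values reached 6.92, the median over the whole array, in 12 receptor genes, of which 9 were at least 2-fold lower in Z(+), with a median of -2.87. Of the 17 below it 8 were, with a median of -0.66, namely Cd160, Klra7, Klrb1a, Klrb1b, Klrb1c, Klrc1, Klrc2 and Klrk1.

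Most of these receptors are neighbours in the genome, and the genes that lie among them give a local comparison. Of the 29 genes, 21 lie on chromosome 6 in the RefSeq assembly GRCm38.p6, and 15 of these passed the 2-fold limit as lower in Z(+), with a median of -2.42. Of the 8 genes elsewhere, Cd96 and Cd160 did. In the stretch from Klrb1a to Klra7, 14 of the 18 receptor genes passed the 2-fold limit as lower in Z(+), with a median of -2.77. The 15 other measured genes between them had a median of 0.02, and 1 of the 15 was at least 2-fold lower. Of these 15, Clec2h, Clec2m, Clec12a, Clec12b and Clec1a had no probe at the median intensity of its sample, so their small differences cannot be read as equal levels, and 10 had such a probe.

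That 1 gene was Clec9a, a receptor of dendritic cells for dead cells, which read 101 in Z(+) cells and 270.5 in Z(-) cells. Clec7a, the myeloid receptor for fungal glucans, lies between Clec2d and Klre1 and read 17074 in Z(+) cells and 15497 in Z(-) cells. Gabarapl1, an autophagy gene next to Klre1, read 3291 in Z(+) cells and 3227 in Z(-) cells. Both were bright and within 2-fold, and Gabarapl1 stood directly beside Klre1.

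**Figure D3:**
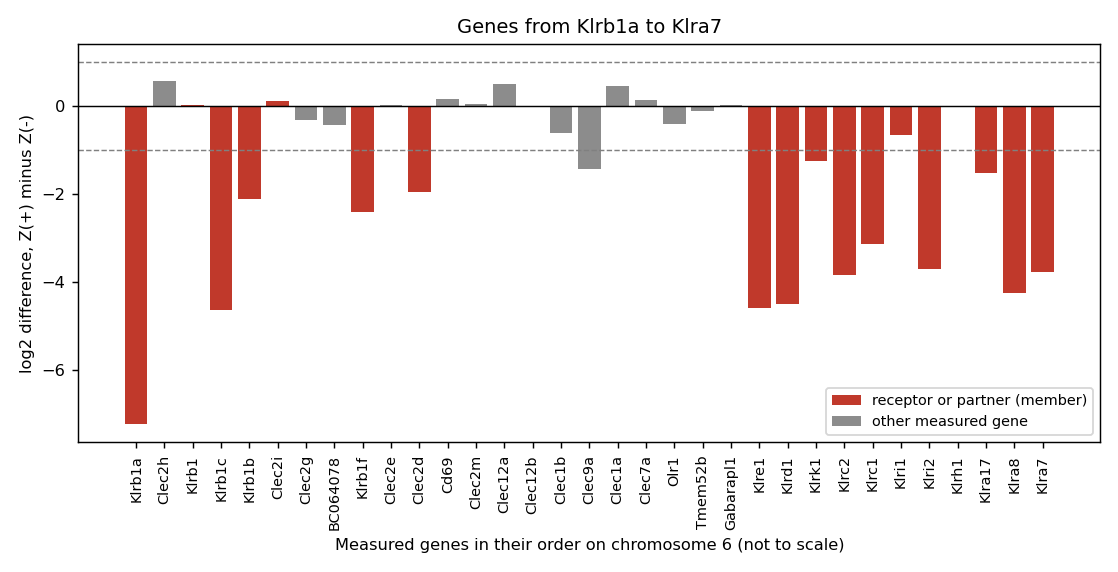
Log2 difference, Z(+) minus Z(-), of the 33 measured genes from Klrb1a to Klra7 in their order on chromosome 6, with the 18 receptor and partner genes in red and the 15 other genes in gray. Dashed lines mark 2-fold, and of the gray bars only Clec9a passes the lower line.

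Activating receptors signal through adaptor chains, and the adaptors went separate ways. Of 15 measured adaptor and signaling genes, 4 were lower in Z(+) by the 2-fold limit, 1 was at least 2-fold higher and 10 lay within 2-fold, with a median of 0.06. Hcst encodes DAP10, the adaptor of NKG2D, and its 2 probes read 1523 and 2112 in Z(+) cells against 4478 and 6529 in Z(-) cells. Cd247, the zeta chain, read 36.5 in Z(+) cells against 592 in Z(-) cells, and Zap70, the kinase that binds it, 258 in Z(+) cells against 1340 in Z(-) cells. The scaffold Lat read 114 in Z(+) cells against 789 in Z(-) cells.

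The other adaptors included bright genes within 2-fold. Tyrobp, which encodes DAP12 and serves the activating Ly49 and NKG2 receptors, read 11834 in Z(+) cells and 14629 in Z(-) cells. Fcer1g, the Fc receptor gamma chain, read 54849 in Z(+) cells and 62343 in Z(-) cells. The kinase Syk read 4865 in Z(+) cells and 3823 in Z(-) cells, and the phosphatase Ptpn6, which inhibitory receptors recruit, 11698 in Z(+) cells and 11063 in Z(-) cells. Sh2d1b1, an adaptor that binds 2B4, was 2.13-fold higher in Z(+) but dim, with 72.6 in Z(+) cells and 34.0 in Z(-) cells. Fcer1g was close to the scanner maximum of 65535 in both fractions, which can compress a ratio.

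Of the ligand genes, Clec2d was counted above with the receptors and was lower in Z(+). The 16 ligand genes measured besides Clec2d and Clec2i all lay within 2-fold, with a median of 0.01. Only 7 of the 16 reached the median of all genes, and the small differences of the dimmer ones cannot be read as equal levels. Raet1a to Raet1d, H60a and the class I genes H2-K1, H2-D1 and H2-T23 were not analysed here. Pvr, the ligand shared by Cd226, Cd96 and Tigit, read 481 in Z(+) cells and 370 in Z(-) cells. Cd48 read 10124 in Z(+) cells and 12912 in Z(-) cells, and Tnfrsf14 612 in Z(+) cells and 391 in Z(-) cells. Cdh1, a cadherin that Klrg1 binds, read 237 in Z(+) cells and 444 in Z(-) cells. The probes of Raet1e, H60b, H60c and Ulbp1, ligands of NKG2D, were all dim.

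**Figure D4:**
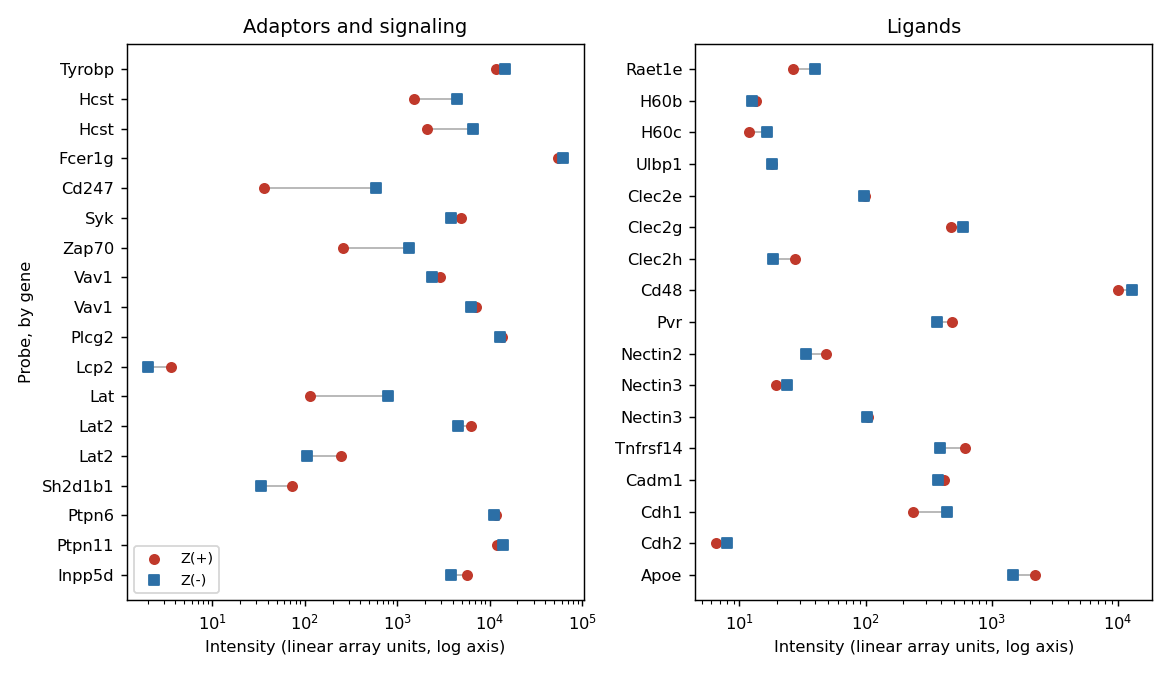
Intensity (log axis, linear array units) of each probe of the adaptor and signaling genes (left) and of the ligand genes (right) in Z(+) cells (red circles) and Z(-) cells (blue squares). The gap is wide at Hcst, Cd247, Zap70 and Lat and narrow at Tyrobp, Fcer1g, Syk and Ptpn6. The ligand pairs lie within 2-fold, many of them dim in both fractions.

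Other NK genes were also measured. Of 12 NK cell markers outside the receptor families, 10 were at least 2-fold lower in Z(+), with a median of -3.40, and their summed intensity was 7191 in Z(+) cells and 98102 in Z(-) cells. The 2 within 2-fold were Itga2, which was dim in both fractions, and Eomes, a T-box factor of NK cells, with 898 in Z(+) cells and 661 in Z(-) cells, while Tbx21, the related T-box factor, read 45.9 in Z(+) cells and 909 in Z(-) cells.

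Markers of other cells that could sit in either fraction also differed. T cell markers, a list that shares Lat with the adaptors, summed to 2138 in Z(+) cells and 13240 in Z(-) cells. Of these 8 markers, 6 were at least 2-fold lower in Z(+). Cd3d alone read 1128 in Z(+) cells and 9971 in Z(-) cells. The 2 within 2-fold were Cd6, with 148 in Z(+) cells and 170 in Z(-) cells, and Themis, dim with 15.7 and 11.1. Mast cell and basophil markers summed to 1641 in Z(+) cells and 32286 in Z(-) cells, with 6 of 7 at least 2-fold lower in Z(+). Macrophage markers summed to 54374 in Z(+) cells and 20927 in Z(-) cells, with 7 of 8 at least 2-fold higher in Z(+). Of 7 listed innate lymphoid cell markers 4 were measured, and 2 of these were at least 2-fold lower in Z(+). Il7r read 77.1 in Z(+) cells and 407 in Z(-) cells, and Gata3 1.00, at the floor, and 267. The other 2 were slightly higher in Z(+). Rora read 136 in Z(+) cells and 122 in Z(-) cells, and Il23r 363 and 309. B cell markers differed little, with sums of 1543 in Z(+) cells and 1444 in Z(-) cells, and Ms4a1 and Pax5, which define B cells, were near the bottom of the scale in both. Ptprc, the common leukocyte antigen CD45, read 30675 in Z(+) cells and 22180 in Z(-) cells on its brighter probe. The part of each cell type in the receptor differences was not tested.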

How the data were processed

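The deposited table holds a linear intensity for each probe in each sample, which the authors made as the mean of 2 technical arrays. For the scanner software, the background method and any scaling, the sources used here give nothing, and a few values lie at or below 0. No detection calls were used here. Values under 1 were set to 1 and log2 was taken, probes of a gene were averaged, and the difference was Z(+) minus Z(-). Each sample's 2 arrays were recovered below an intensity of 2000 as the pair of whole numbers that, multiplied by the sample's 2 factors, average to the deposited value. Where several pairs fitted, a pair was taken only if it alone had numbers within 1.5-fold of each other. This choice favours arrays that agree, so the SD between arrays may be too low. This split was tested on simulated data in which the 2 arrays were drawn close together. In the deposited data the split could be made for 99.5% of such probes in Z(+) and 99.8% in Z(-). With 1 sample per fraction no test exists. The number of arrays limits the precision.

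Probes were named through the platform annotation, and all 29 symbols were unchanged in RefSeq. Probe sequences were not used here, so cross-hybridisation among the related Klra, Klrb and Klrc copies was not checked. The match of the probes to the sequences of NOD-SCID mice was not checked either. A gene was named with both intensities where a probe reached the median probe intensity of its sample in either fraction, and Ncr1, Klrb1c, Klrk1, Klrd1, Klre1 and Klra8 always; the dimmer genes named besides, and the single genes of the marker, ligand and adaptor lists and of the gene complex, were picked with their values in view. The members, the lists and the alternatives were chosen with earlier results of these data known. The alternatives were 3 scalings, a pseudocount of 50, the brightest probe of each gene, a filter on dim genes and thresholds of 1.5-fold and 4-fold. The work ran in Python 3.11.15 with pandas 2.3.3 and numpy 2.4.6, loess came from statsmodels 0.14.6 with a span of 0.3, and plots from matplotlib 3.10.9.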

Additional observations from a re-analysis of the deposited data

How the results depend on the processing

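The count of receptor genes at least 2-fold lower in Z(+) was 17, and it stayed 17 under median centring, quantile normalization and loess and with the brightest probe of each gene. Over all genes 5.81% to 6.72% were lower under these settings. The count was 15 with a pseudocount of 50, beside 3.36% of all genes. Under that pseudocount Klrb1b, at -0.996, and Klrk1, at -0.77, no longer passed the 2-fold limit. The count was 18 at 1.5-fold and 14 at 4-fold, for which the share over all genes was not computed. With genes dimmer than the median gene left out, it was 9 of the 12 remaining, beside 586 of 9542 over all such genes. No receptor gene was higher by the threshold under any of these settings. The medians kept their sign. With a pseudocount of 50 the median log2 difference was -1.40 over all receptor genes, -1.72 over Klra, -2.02 over Klrb and -2.01 over the Klrc, Klrd, Klre, Klri and Klrk group. Keeping only the brighter genes gave -2.87 over all receptor genes and -0.88 over the partner receptors. For Klrb it gave -1.19, where only Klrb1 at 0.03 and Klrb1f at -2.42 remained. For the Klrc to Klrk group it gave -4.50, from Klrd1, Klre1 and Klri2, and for Klrg -3.33, from Klrg1 alone. The brightest probe gave -3.16 over the Klrc to Klrk group, where the 3 probes of Klrc2 disagree. No paired analysis was possible because each fraction has 1 sample. Dim probes limit the ratios: the near-zero Z(+) value of Klrb1a gives no firm size, and a receptor dim in both fractions, such as Ncr1, shows no difference at this signal. No setting could supply a replicate of the sort.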
